A study of Drosophila melanogaster with 2 samples.

Results

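The genes described here are 9 members of the epidermal growth factor receptor (EGFR) pathway of Drosophila melanogaster: the ligand genes vn and spi, the receptor gene Egfr, the GTPase gene Ras85D, the feedback inhibitor genes aos, sty and kek1, and the ETS factor genes pnt and aop. They were chosen by name from 13922 protein-coding genes. A peak was assigned to a gene when it overlapped the annotated dm6 span of the gene extended by 5 kb on each side. This gave 61 of 14461 peaks in replicate 1 and 105 of 26420 peaks in replicate 2. The assay was CUT&RUN, in which a nuclease bound to an antibody cuts out the chromatin that carries a mark. The mark was H3K27ac, a histone acetylation of active enhancers and promoters. Both libraries came from wings of male pupae of the transgenic line D2 at 67% of pupal development, with 35 to 45 wings pooled per biological replicate. They form 1 group with no comparison group, so the values below are descriptions of 2 libraries and no test between conditions was possible.

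In this pathway, secreted ligands bind the receptor, which acts through Ras and a MAP kinase cascade on nuclear ETS factors. Pointed (pnt) activates target genes, while Yan (aop) represses them until the kinase phosphorylates it. Argos, Sprouty and Kekkon-1 are feedback inhibitors, whose genes are themselves induced by the pathway in several tissues. In the wing the pathway is known for specifying veins, and vn takes its name from that phenotype.

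The fold enrichment of a peak is the authors' deposited value, the pileup of fragments at the summit over the background that the peak caller estimated there. In this ratio 1 is added to both the pileup and the background. Pileup and background were recovered from the deposited fold and -log10 p. Replicate 1 had a genome-wide background of 13.8 fragments and replicate 2 of 27.1 fragments, 1.96 times as many. The smallest fold listed was 1.49 in replicate 1 and 1.31 in replicate 2. Intervals are exact Poisson intervals at 95% of the pileup and cover counting error only. The wing markers vg, sd, nub, ap and bs each had 5 to 13 peaks shared by the replicates. Of 21 markers of other cell types, Mhc, up, wupA, Hml, elav, Fbp1 and Lsp1alpha had 0 shared peaks. At least 1 was present at 2 of 5 muscle, 3 of 4 hemocyte, 3 of 4 neuron and 1 of 3 fat body markers. All 2 trachea and all 3 photoreceptor markers had one, as did 74.6% of all protein-coding genes. The highest count was 2 for the muscle, hemocyte and neuron lists, 3 for fat body, 4 for photoreceptors and 7 for trachea. The hemocyte markers NimC1 and He shared 1 and the same peak. The highest shared peak lay within 500 bp of another gene at many of these markers, and also at the wing markers vg and bs. The wing markers were longer, with a median of 23.3 kb against 2.69 to 16.8 kb for the other lists. The part of such cells in the peaks below was not tested.

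Every member carried at least 1 peak found in both replicates. Shared peaks, meaning replicate 1 peaks that overlapped a replicate 2 peak by at least 1 bp, numbered 50 over the 9 genes. Such a peak was also present at 74.6% of all protein-coding genes. The share was 84.7% at genes of 5 to 20 kb and 79.5% at the 1012 genes of 20 kb or more. A shared peak within this distance was thus common. The members had a median of 4 shared peaks per gene. The median was 2 for all protein-coding genes, 2 for those of 5 to 20 kb and 3 for those of 20 kb or more. Per 10 kb of extended span the median was 1.68 shared peaks for the members. It was 1.23 for all genes (quartiles 0 and 2.11) and 1.27 for genes of 5 to 20 kb (0.58 and 1.99). For genes of 20 kb or more it was 0.70 (0.18 and 1.53). The members have a median length of 22.3 kb, and all protein-coding genes have one of 2.16 kb.

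**Figure D1:**
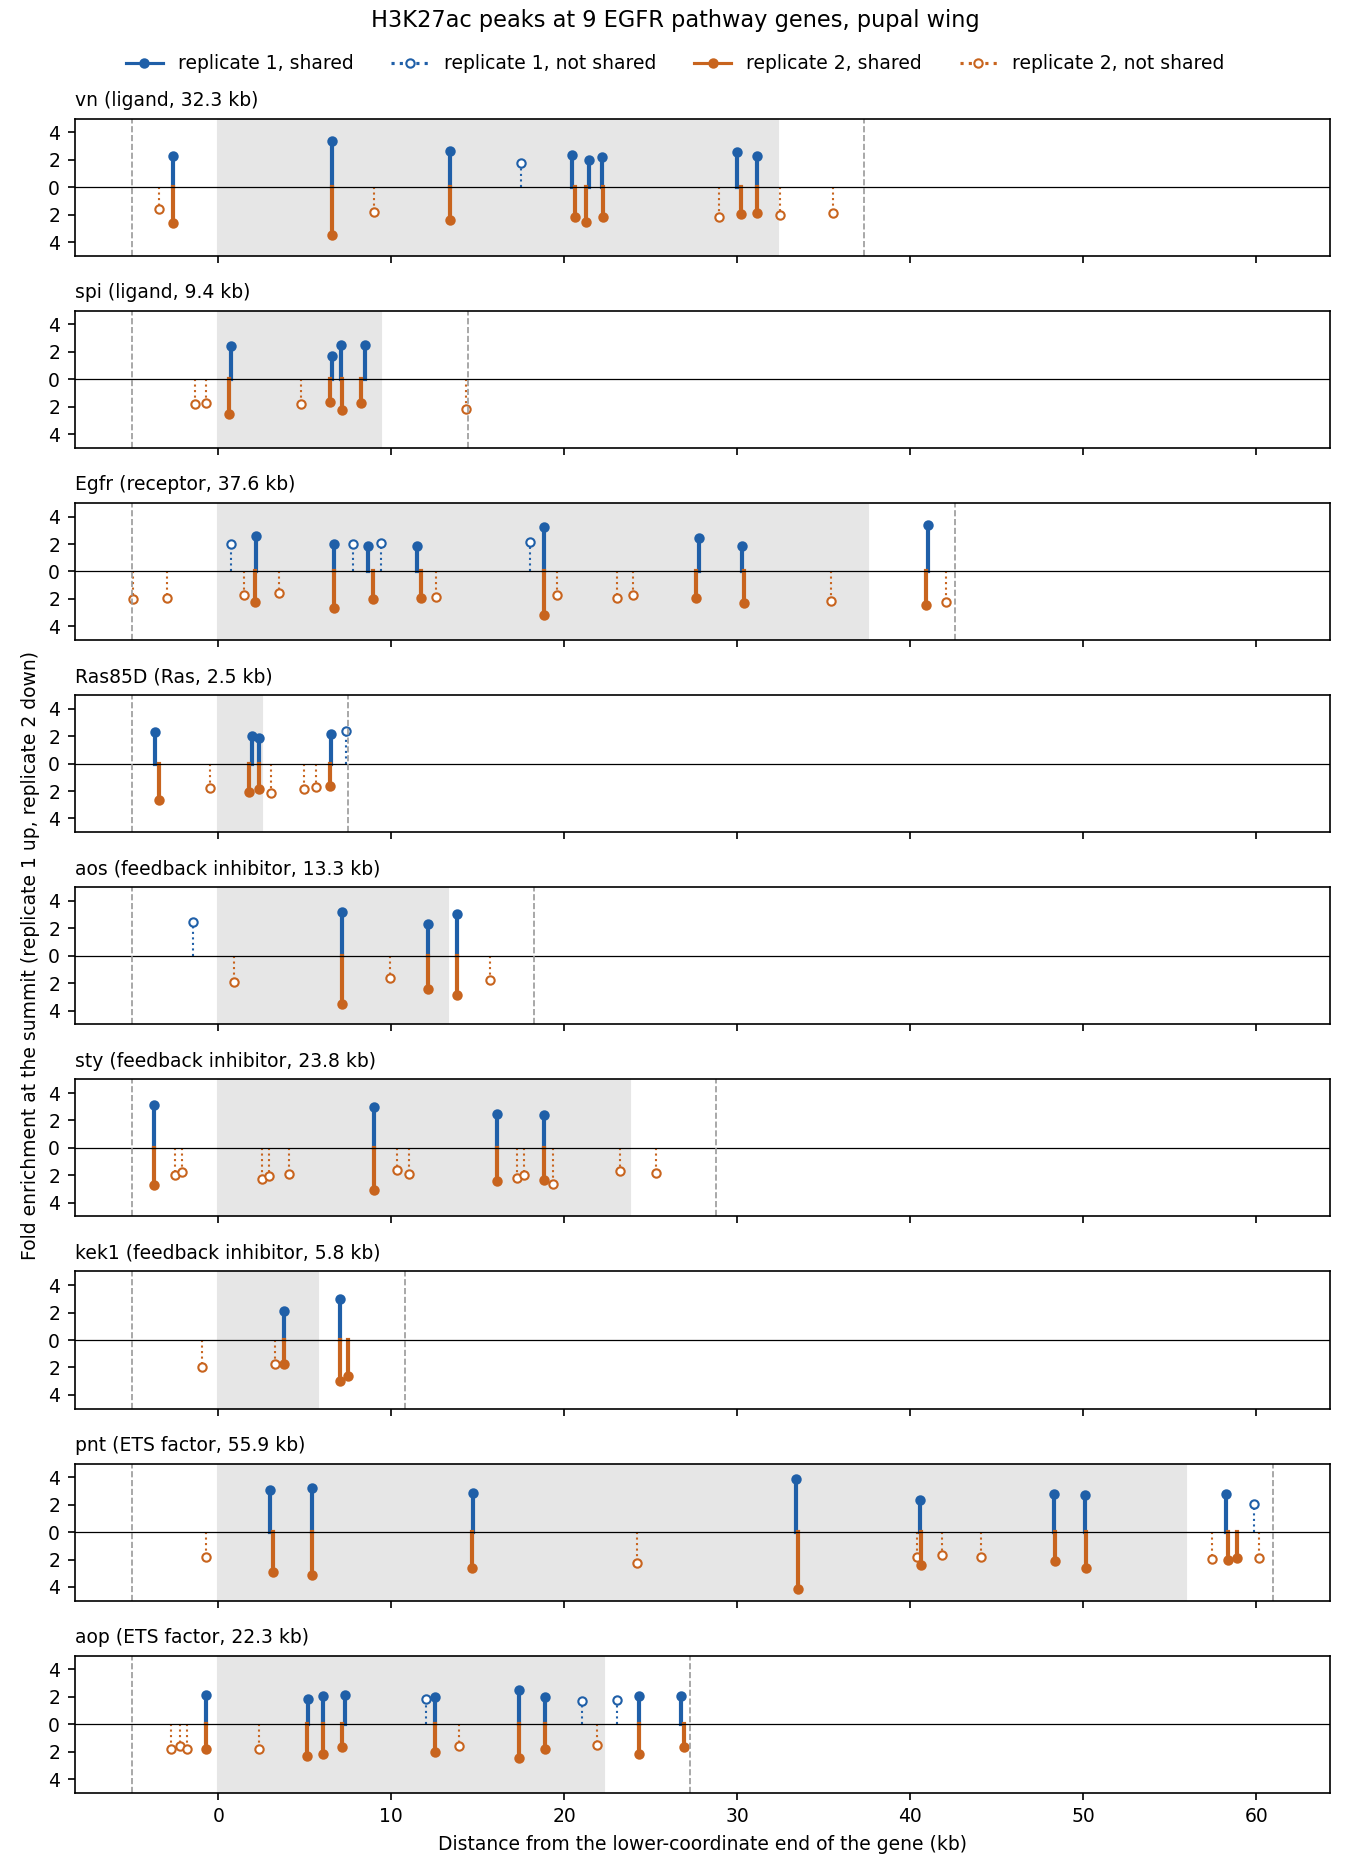
Position and fold enrichment of every H3K27ac peak at the 9 genes, with distance from the lower-coordinate end of the gene in kb on the horizontal axis, replicate 1 above the line and replicate 2 below it. Grey marks the gene, dashed lines the limits of the 5 kb extension, filled points the shared peaks and open points the others; 38 of the 50 shared summits lie inside the gene.

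By the replicate 1 summit, 38 of the 50 shared peaks of the pathway genes (76%) were in the gene interior, 11 in the flanking 5 kb and 1 within 500 bp of a gene end. The gene interior makes up 66.2% of the members' extended spans. In the other sets each pair of a gene and a shared peak was counted, so 1 peak can count for several neighbouring genes. At the members each peak counts once. Of 4759 pairs at genes of 20 kb or more, 72.3% were interior, where the interior makes up 82.2% of the extended spans. Over all protein-coding genes, 23.7% of 28675 pairs were interior, and the interior makes up 35.3% of the spans. The interior share thus lay above the span share at the members and below it in the other sets. The sets differ in such repeated counting, and this difference in shares was not tested. Within 500 bp of a gene end lay 2% of the members' shared peaks. The share was 6.0% of the pairs at genes of 20 kb or more and 17.8% of those at all protein-coding genes. These end windows make up 6.1%, 3.2% and 11.5% of the extended spans, in the same order. The replicate 2 summit gave the same class for all 50 shared peaks of the members. The gene annotation carries no strand, and an end of a gene below can therefore be its 5' or its 3' end. In both replicates a peak came within 500 bp of an end of spi, aos and Ras85D, 3 of the 9 members, against 39.3% of all protein-coding genes and 31.9% of those of 20 kb or more. The share among the members, 33.3%, lies near both values. With a window of 250 bp the count was 1, and with summits in place of peak intervals it was also 1, both times Ras85D. The list of replicate 2 alone gave 6 members.

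Among the ligand genes, vn held 8 shared peaks and the shorter spi held 4. The gene vn, which encodes the neuregulin-like ligand Vein, lies on 3L at 5813338 to 5845664 and spans 32.3 kb. It had 9 peaks in replicate 1 and 13 in replicate 2, of which 8 were shared. Its highest shared peak, at 5819692 to 5819965 in replicate 1, had a fold enrichment of 3.34 in replicate 1 (interval 2.56 to 4.28) and 3.46 in replicate 2 (2.86 to 4.15). The summit lay 6548 bp inside the gene, and the value ranked at the 91.4th percentile of the replicate 1 list and the 98.5th of the replicate 2 list. The next shared peak of vn, 13416 bp from the same end, reached 2.64 and 2.38. A group of 3 shared peaks followed at 20460, 21417 and 22199 bp, with folds of 2.33, 2.00 and 2.19 in replicate 1 and 2.20, 2.57 and 2.15 in replicate 2. The shared peak 2599 bp outside the gene, at 2.26 and 2.60, also lay within 500 bp of S6k and kri and cannot be assigned to vn alone. Toward the other end of vn, 2 further shared peaks lay 2368 and 1192 bp inside the gene. Their folds were 2.58 and 2.30 in replicate 1 and 1.95 and 1.90 in replicate 2. Within 500 bp of that end, replicate 2 alone listed a peak, 127 bp past the gene, with a fold of 2.06.

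The gene spi encodes Spitz, a TGF-alpha-like ligand that is cleaved before it is secreted. It lies on 2L at 19567900 to 19577315 and had 4 peaks in replicate 1, all shared, and 8 in replicate 2. The highest shared peak, at 19568326 to 19569153, reached 2.45 (1.89 to 3.11) and 2.57 (2.11 to 3.09), with its summit 716 bp inside the gene. The other 3 lay close together in the opposite part of the gene, at 6599, 7099 and 8503 bp. Their folds were 1.72, 2.51 and 2.53 in replicate 1 and 1.68, 2.24 and 1.71 in replicate 2. The peak at 8503 bp differed most between the replicates of all 50 (0.57 on the log2 scale, replicate 1 over replicate 2), and its intervals of 2.02 to 3.13 and 1.38 to 2.09 still overlapped.

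The receptor gene Egfr had 12 peaks in replicate 1 and 18 in replicate 2 over 37.6 kb on 2R, at 21522420 to 21559977, with 8 shared. Its highest interior peak, at 21541116 to 21541433, reached 3.28 (2.72 to 3.91) and 3.16 (2.68 to 3.71). This peak stood on 122 fragments in replicate 1 and 150 in replicate 2, pileups at the 99.6th and 99.5th percentile of the lists. It was the highest pileup in replicate 2 among the shared peaks of the 9 genes. A flanking peak 3435 bp past the gene, at 3.36 and 2.47, lay within 500 bp of the neighbour twz. The other 6 shared peaks lay between 2159 and 30252 bp inside the gene, with folds from 1.85 to 2.56 in replicate 1 and from 1.92 to 2.64 in replicate 2. No peak came within 500 bp of either end of Egfr in either list. Replicate 1 listed 4 interior peaks of Egfr, at folds of 2.01 to 2.18, that overlapped no replicate 2 peak, the largest number of such peaks at any member.

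Ras85D encodes the Ras GTPase downstream of the receptor and is the shortest member, 2.51 kb on 3R at 9510561 to 9513067. Its extended span held 4 shared peaks, but only 2 of them lay in the gene, at folds of 2.02 and 1.90 in replicate 1 and 2.11 and 1.85 in replicate 2. The peak with a summit 172 bp inside the end of Ras85D was also within 500 bp of Rlb1. The 2 flanking peaks lay at other genes, CG8149 and rump at 2.34 and 2.63, and CG8176 and Kdm3 at 2.18 and 1.66. The density of 3.20 shared peaks per 10 kb, the highest of the 9 genes, therefore includes peaks of a gene-dense neighbourhood with 6 other protein-coding genes in the span.

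The feedback inhibitor genes carried 2 to 4 shared peaks each, and spi and Ras85D also carried 4. The highest peak of each inhibitor gene stood near or above a fold of 3 in both replicates, as did those of vn, Egfr and pnt. The gene aos encodes Argos, a secreted protein that binds Spitz. It lies on 3L at 16470386 to 16483650, inside the annotated span of CG33158, so that all its peaks also lie in that gene. Its highest peak, at 16477275 to 16477600, had folds of 3.21 (2.39 to 4.22) and 3.51 (2.91 to 4.19), in the 88.8th and 98.7th percentile of the lists. A further shared peak stood 529 bp past the end of aos at 3.05 and 2.87, and the last, 1135 bp inside that end, at 2.31 and 2.43.

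The gene sty encodes Sprouty, an intracellular inhibitor of receptor tyrosine kinase signalling, and lies on 3L at 3401153 to 3424935. Its 4 replicate 1 peaks were all shared. The highest, at 3409568 to 3410289, had folds of 2.95 (2.28 to 3.76) and 3.08 (2.52 to 3.72), 8993 bp inside the gene. The second stood 3701 bp outside sty at 3.12 and 2.70, with no other protein-coding gene within 500 bp. The remaining interior peaks reached 2.49 and 2.45, and 2.40 and 2.33. The 2 libraries differed most in number here, with 16 peaks in replicate 2 of which 25.0% were shared. The 12 peaks listed by replicate 2 alone at sty ran from 1.63 to 2.61 in fold, and the highest of these, at 3420375 to 3420608, was a neighbour of the last shared peak.

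The gene kek1 encodes Kekkon-1, a transmembrane protein that binds the receptor, and spans 5.79 kb on 2L at 12817000 to 12822787. No other protein-coding gene lay in its extended span. It had the fewest shared peaks, 2, and the stronger of them lay outside the gene, 1250 bp past its end. That peak was 1240 bp wide in replicate 1 with a fold of 3.02 (2.43 to 3.70). Replicate 2 listed 2 peaks in its place, of which the higher was 296 bp wide and also reached 3.02 (2.53 to 3.57). With a reciprocal overlap of at least 50%, kek1 had 0 shared peaks. The interior peak of kek1 stood at 2.14 and 1.78, with replicate 1 at 12820696 to 12820852 and replicate 2 at 12820786 to 12820951, nearly equal in width but offset.

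The ETS factor genes pnt and aop held about the same number of shared peaks, 8 and 9, but differed in their heights. The longest member, pnt, spans 55.9 kb on 3R at 23290231 to 23346167. It carried the peak with the highest fold of the 9 genes, at 23323249 to 23323911, with 3.91 (2.98 to 5.05) in replicate 1 and 4.17 (3.47 to 4.97) in replicate 2. These values stood at the 97.2nd and 99.7th percentile of the lists. Toward the lower-coordinate end of pnt followed peaks 2999, 5444 and 14738 bp inside the gene, with folds of 3.10, 3.24 and 2.83 in replicate 1 and 2.92, 3.13 and 2.60 in replicate 2. No shared summit lay between 14738 and 33398 bp, a stretch in which replicate 2 alone listed 1 peak at 2.24. The 3 interior peaks beyond the highest one, at 40575, 48325 and 50091 bp, ranged from 2.34 to 2.75 in replicate 1 and from 2.11 to 2.59 in replicate 2. The flanking peak at 2.75 and 2.01 lay at the neighbouring gene PolE1.

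The gene aop spans 22.3 kb on 2L at 2156484 to 2178754. Its 9 shared peaks were the most of the 9 genes, against 8 each at vn, Egfr and pnt. This lead depended on the setting. Without the 5 kb extension aop had 6, and vn, Egfr and pnt had 7 each. With a -log10 q of at least 5 aop had 6 and vn 8. In the flanks of aop lay 3 shared peaks, and the one 729 bp outside the gene was within 500 bp of AIF and CG15382. The highest aop peak, at 2173608 to 2174000, reached only 2.48 (2.07 to 2.94) and 2.47 (2.08 to 2.91). These intervals do not overlap those of the highest pnt peak in either replicate. The other 8 shared peaks of aop stood between 1.83 and 2.14 in replicate 1 and between 1.64 and 2.35 in replicate 2. By fold the highest aop peak was at the 53.9th percentile of the replicate 1 list and the 81.2nd of the replicate 2 list. The others were at or below the 22.7th percentile in replicate 1 and between the 1.53rd and the 75.0th in replicate 2.

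**Figure D2:**
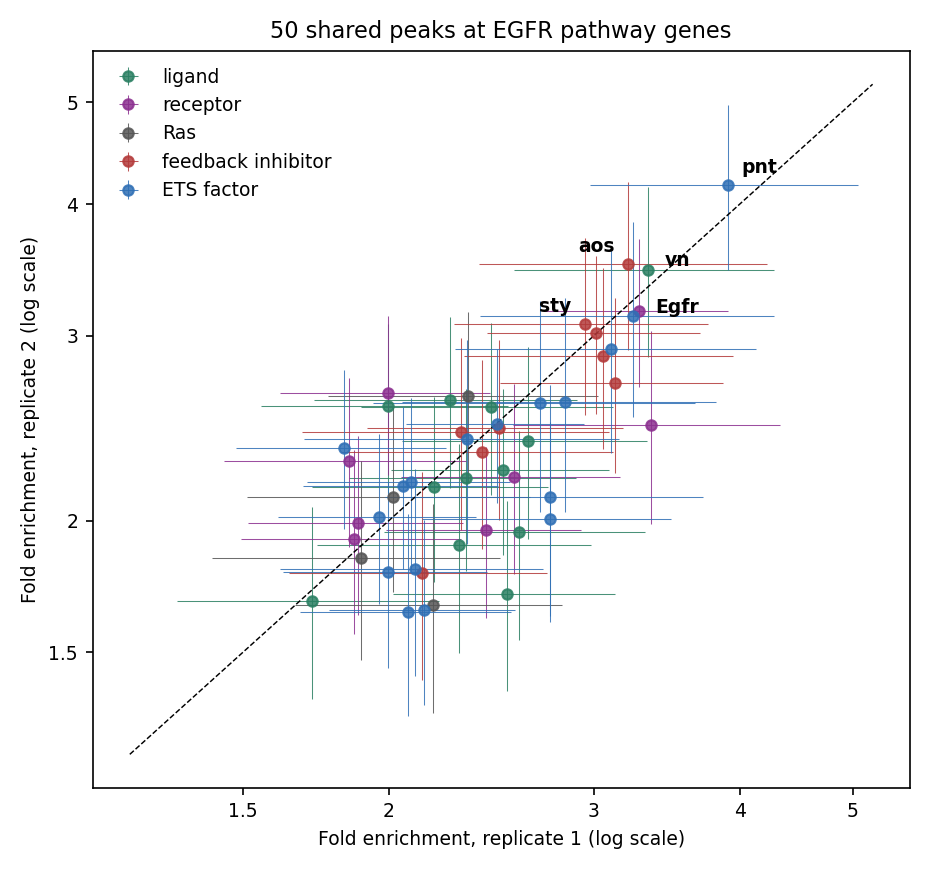
Fold enrichment of the 50 shared peaks in replicate 1 (horizontal, log scale) and replicate 2 (vertical, log scale), coloured by the role of the gene, with the exact Poisson 95% interval of each value and a dashed line of equality. The highest pnt peak stands at 3.91 and 4.17, and the intervals of the 2 replicates overlap for all 50 peaks.

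The 95% counting intervals of fold enrichment overlapped between the replicates for all 50 shared peaks. They were apart for 2.7% of the 11458 shared peaks of the whole lists, so that few such cases would occur among 50 peaks at that rate. Overlap of the intervals does not show that the folds are equal. Replicate 1 was higher at 30 peaks and replicate 2 at 20. The median fold was 2.37 in replicate 1 and 2.30 in replicate 2 for the members, against 2.50 and 2.29 for all shared peaks. Across the 50 peaks, which share genes and libraries, the Spearman correlation of fold between the replicates was 0.64, and it was 0.51 across all shared peaks. The summits of a pair lay a median of 36.5 bp apart, at most 262 bp. The highest peaks of pnt, vn, aos, Egfr, sty and kek1 had overlapping intervals in each replicate. Such overlap is no test of order, and the order of these peaks by fold was not tested. The pnt peak had the highest fold of them in both replicates.

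Peaks of the pathway genes found in 1 list only were low in the median. Replicate 1 listed 11 such peaks with a median fold of 2.03 and replicate 2 listed 53 with a median of 1.83. Their median percentiles in the lists were 13.2 and 17.9, against 44.4 and 72.0 for the shared peaks of the members. Some stood higher, up to a fold of 2.43 in replicate 1 and 2.61 in replicate 2. The latter, at sty, was at the 86.7th percentile. The same medians are not given here for the unshared peaks of the whole lists. Of the members' peaks, 82.0% of replicate 1 and 49.5% of replicate 2 were shared, close to the 79.2% and 44.7% of the whole lists.

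The order of the genes by pileup was different from their order by fold. The median background under the peaks of aop was 3.58 times the genome-wide value in replicate 1 and 1.96 times in replicate 2. For Egfr it was 2.89 and 1.76 times, while pnt stood at 1.00 and 1.10 times and aos at 1.17 and 1.30 times. Only 0.67% of all peaks in replicate 1 and 1.57% in replicate 2 had a background at or above the aop median. The highest aop peak held 128 fragments in replicate 1 (106.8 to 152.2) and the highest pnt peak 57 (43.2 to 73.9). By pileup aop was thus above pnt in replicate 1, and by fold below it. In replicate 2 the same peaks held 140 (117.8 to 165.2) and 122 fragments (101.3 to 145.7), and these intervals overlap. How the caller set the local background, and whether a control library entered it, is not given in the sources used here.

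**Figure D3:**
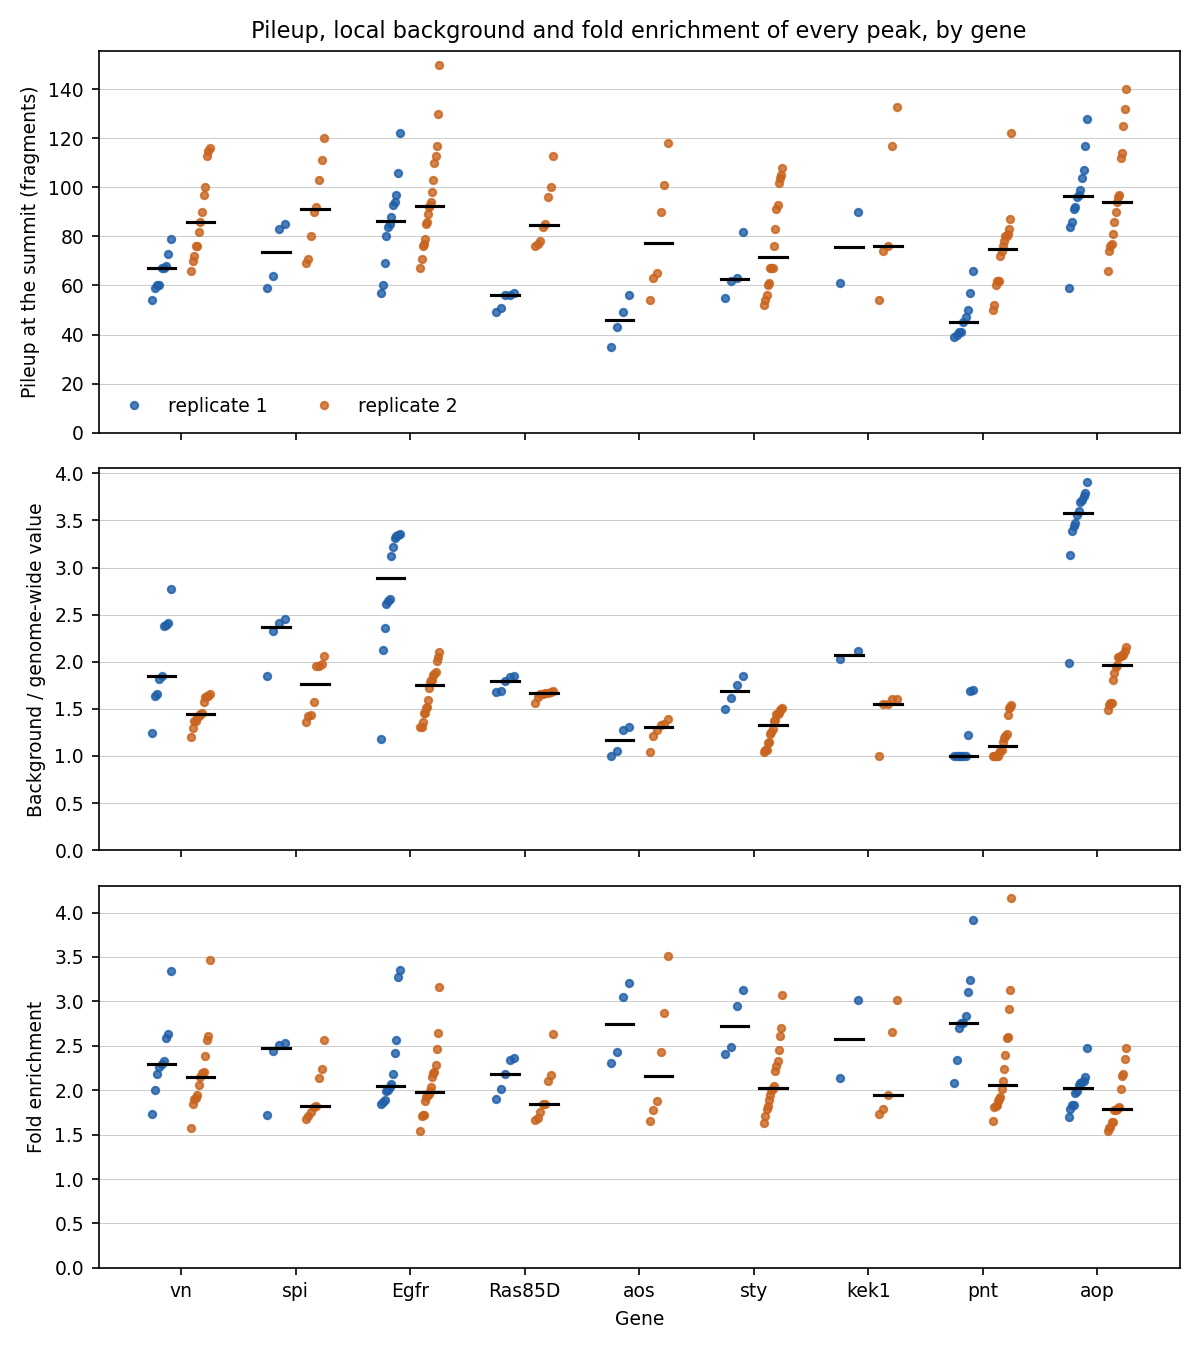
Pileup at the summit in fragments (top), background as a multiple of the genome-wide value (middle) and fold enrichment (bottom) of every peak, by gene and replicate; points are peaks and black bars are medians. In replicate 1 the background medians of aop and Egfr, 3.58 and 2.89 times the genome-wide value, exceed those of the other 7 genes, while the fold medians of aop and Egfr, 2.03 and 2.05, are the lowest. In replicate 2 this holds for aop, at 1.96 and 1.79, and not for Egfr. There the background median of Egfr, 1.756, is below that of spi, 1.765. Its fold median of 1.98 is above those of spi, Ras85D and kek1.

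The ranking of the 9 genes by background was alike in both lists, with a Spearman correlation of 0.93 over the 9 medians. The size of the relative background was not alike. Besides aop and Egfr, it was higher in replicate 1 at spi (2.37 against 1.76), kek1 (2.07 against 1.56) and vn (1.85 against 1.45). The same held at sty (1.69 against 1.33) and Ras85D (1.79 against 1.67), but not at aos and pnt. Over the whole lists the medians were 1.42 and 1.26. The pileup was also compared. Divided by the genome-wide background, the pileup of the highest aop peak stood at 9.26 in replicate 1 (7.72 to 11.0) and 5.16 in replicate 2 (4.34 to 6.09). The highest interior Egfr peak stood at 8.82 (7.33 to 10.5) and 5.53 (4.68 to 6.49), whereas pnt stood at 4.12 (3.12 to 5.34) and 4.50 (3.73 to 5.37). Such intervals were apart at 14 of the 50 shared peaks, each time with replicate 1 higher, against 15.9% of all shared peaks in that direction and 0.166% in the other. These 14 peaks were 7 of 9 at aop, 5 of 8 at Egfr, 1 of 8 at vn and 1 of 4 at spi. The genome-wide background is the most frequent value among listed peaks and not a read total.

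**Figure D4:**
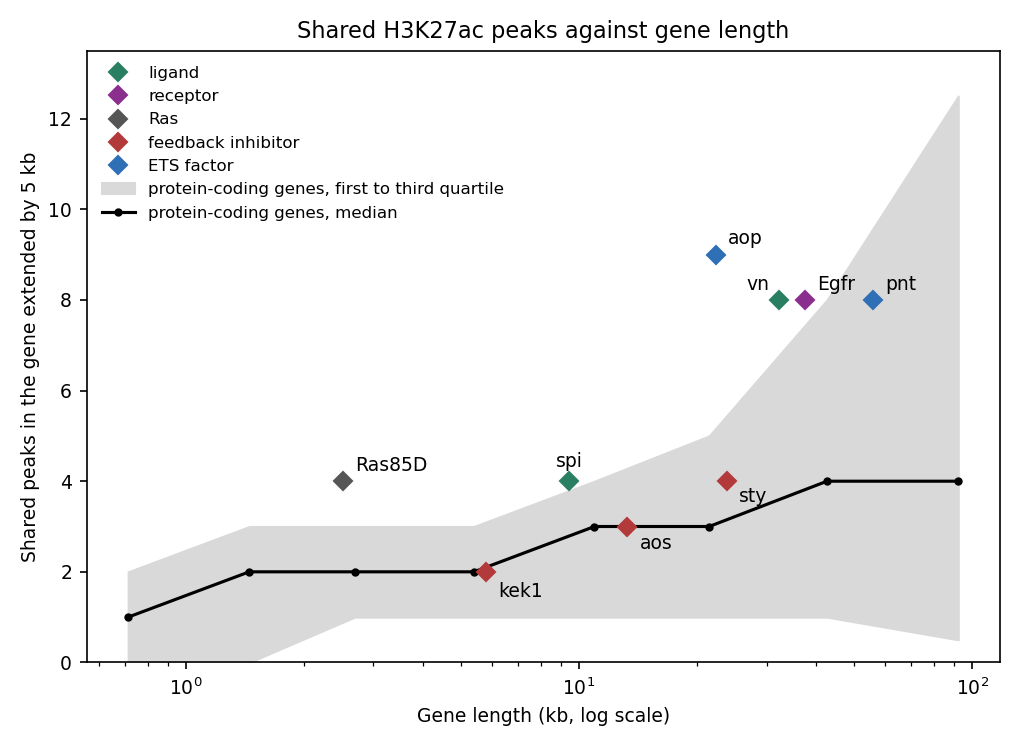
Number of shared peaks in the gene extended by 5 kb (vertical) against gene length in kb (horizontal, log scale), with the 9 pathway genes as diamonds, the median of protein-coding genes in 8 length bins as the black line and the range between the first and the third quartile in grey. The gene aop, with 9 shared peaks, stands above the third quartile, and kek1 and aos, with 2 and 3, stand on or near the median.

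Beside genes of like length, aop and Ras85D had more shared peaks than the third quartile, while the feedback inhibitor genes stood near the median. There were 9 shared peaks at aop and 4 at sty, against a median of 3 (quartiles 1 and 5) for protein-coding genes of 16 to 32 kb. The genes vn, Egfr and pnt each had 8, the third quartile of genes of 32 to 64 kb, whose median was 4 and first quartile 1. There were 4 at spi and 3 at aos, against a median of 3 (quartiles 1 and 4) for genes of 8 to 16 kb. The 2 of kek1 equalled the median of genes of 4 to 8 kb, and the 4 of Ras85D lay above the third quartile of 3 for genes of 2 to 4 kb. The protein-coding genes nearest in length with the same number of shared peaks were ttk, atos and jbug for aop, how, CG43954 and Lasp for Egfr, CG42741, Bsg and aus for vn, and Cad87A, Wdr62 and Pgant9 for pnt. This likeness rests on length and number alone.

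Other genes of the pathway were taken from a list of 31 in ligand processing, receptor regulation, Ras control, the kinase cascade and nuclear factors. A shared peak lay in the extended span of 29 of them (93.5%), against 84.7% of protein-coding genes of 5 to 20 kb and 74.6% of all protein-coding genes. Their median was 3 shared peaks and their median length 12.7 kb. The count of 29 became 21 without the 5 kb extension, and also 21 with only peaks nearest to the gene itself. At many of the 29 genes the highest shared peak lay within 500 bp of another gene and cannot be assigned to the pathway gene alone. With the extension, all 6 ligand and processing genes and all 7 adaptor and Ras regulator genes had a shared peak. So did all 9 kinase cascade genes and all 4 nuclear factors. Among 5 receptor-side regulators, 3 had one, and the cell adhesion gene fred and the Kekkon family gene kek2 had none. A gene-end peak in both replicates was present at 14 of the 31 genes. This is near the share of 45.4% at protein-coding genes of 5 to 20 kb, and 39.3% of all protein-coding genes had one.

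Of these other pathway genes, 6 had the highest peaks by mean fold. The MAP kinase gene rl had folds of 6.73 and 2.60, a difference larger than any between the replicates at the 9 members. The gene S, whose product Star moves ligands out of the endoplasmic reticulum, had 3.92 and 3.68 from a peak 973 bp inside it, and 9 shared peaks in all. The Raf kinase gene phl had 3.32 and 4.02 from an interior peak. The repressor gene cic, a target of MAP kinase, had 3.30 and 3.55. The rhomboid protease gene ru and the ligand gene grk had 3.37 and 3.20, and 3.23 and 3.25, but from peaks that lay at the neighbours Ptp61F, and D12 and Chrac-14. The rhomboid protease gene rho, known from wing vein cells and named here after its values were seen, had 2.29 and 3.30 from a peak at Ptp61F and Naa30B.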

How the data were processed

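CUT&RUN for H3K27ac used 2 biological replicates of male pupal wings, lightly crosslinked for 1 min, and 1 µl of antibody, per the labels' protocols. Bowtie2, MACS2 and dm6 are named, per the submitters' processing notes; the sources used here give no versions, caller settings, duplicate handling or control. Each replicate has its own deposited list. The deposited fold is the ratio of pileup to background at the summit, with 1 added to each. The deposited -log10 values are p and q of the caller, and the deposited score follows the -log10 q, whose minimum was 2.01 and 2.04.

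Positions were made 1-based. Pileup and background were solved from fold and -log10 p under a Poisson model, within 0.001 for all but 1 peak in each list; the most frequent background was taken as genome-wide. Read totals are unknown, and intervals treat fragments as independent although no molecular identifiers were used. Genes came from RefSeq's Release 6 table, on 6 chromosome arms; all 9 symbols matched. Of 32 listed pathway names, Gap1 and RasGAP1 were 1 gene, and phl matched Raf. Members and lists were chosen with earlier results of these data known. The naming rule took all members with their 3 highest shared peaks, the 6 highest and all unmarked pathway genes, neighbours within 500 bp, and 3 genes of like length per member; further peaks of the members are given as ranges or for completeness. Alternatives were other extensions, thresholds, overlaps, windows, peak assignments, each list alone and equal list sizes. The planned motif search was not run, since no sequences were used here. Functions were tested on simulated data. Tools were Python 3.11.15, numpy 2.4.6, pandas 2.3.3, scipy 1.17.1 and matplotlib 3.10.9.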

Additional observations from a re-analysis of the deposited data

How the results depend on the processing

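Of the values recomputed under other settings, the count of members with a shared peak was 9 under all but 1 alternative, and 8 with a reciprocal overlap of at least 50%, where kek1 had 0. The number of shared peaks at the members, 50, became 23 with the 7230 top peaks of each list, and 61 to 105 with each list alone. The count of members with a gene-end peak, 3, became 1 with a window of 250 bp, 1 when the summit had to lie in the window, and 3 to 6 with each list alone. When the gene-end peaks of the replicates also had to overlap (a requirement added after seeing the data), it was 3. The mean of the replicates' median folds, 2.34, became 2.48 with a -log10 q of at least 5, 2.73 with the top peaks, and 1.96 to 2.31 with each list alone; stricter lists hold fewer low peaks by construction. The pathway count of 29 ranged from 21 (no extension, or only the nearest gene) to 31 (the list of replicate 2). No paired analysis was possible because there is 1 group. Read totals are unknown, and the part of depth in the shorter list of replicate 1 was not tested.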
